A study of Homo sapiens with 6 samples.

Results

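Transcripts of 4 apoptotic caspases (CASP6, CASP8, CASP9 and CASP10) and 4 inhibitor of apoptosis (IAP) genes (XIAP, BIRC2, BIRC3 and BIRC5) were followed in a lymphoma cell line treated with an inhibitor of DNA methyltransferase 1 (DNMT1). The genes were picked by name, with earlier results of these data known. All 8 were among the 35974 genes of the deposited table and among the 20783 that could be tested. The IAP genes held the large changes. BIRC5 and BIRC3 were 4.96-fold and 4.71-fold lower with the inhibitor, while BIRC2 was not called and XIAP rose slightly. Of the caspases, CASP10 and CASP9 rose, and CASP8 and CASP6 were not called.

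Caspases are proteases that cut after aspartate and carry out apoptosis. Initiator caspases are switched on by being brought together. CASP8 and CASP10 gather at death receptors through the adaptor FADD, and CASP9 gathers on the apoptosome, which APAF1 forms when cytochrome c leaves the mitochondria. They switch on executioner caspases, and these, CASP6 among them, cut structural and repair proteins. IAP proteins share the BIR zinc-binding fold. XIAP binds and blocks caspases directly, BIRC2 and BIRC3 (cIAP1 and cIAP2) are ubiquitin ligases that work with TRAF2 in TNF receptor and NF-kappaB signalling, and BIRC5 (survivin) is best known as a subunit of the chromosomal passenger complex in mitosis.

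The inhibitor group was 3 libraries of the DLBCL (diffuse large B-cell lymphoma) line SU-DHL-8 treated with GSK3685032, a DNMT1 inhibitor, and the control group was 3 libraries of the same line treated with the solvent DMSO. All 6 libraries are labelled wild type for DNMT1 and lymph node by tissue. The treatment labels of inhibitor replicates 2 and 3 end in 33 and 34 in place of 32, so the comparison was also made with inhibitor replicate 1 alone. The labels state neither dose nor duration. Nor do they say whether a group's libraries stem from separate cultures, and p-values measure the spread between these libraries alone, which may be technical. Estimated counts summed to 53846028 to 56795603 per library with the inhibitor and 57451935 to 75304441 with DMSO, at about 4 counts per read pair. The first principal component separated the groups and held 89.1% of the variance. All 6 B-cell markers listed were present, with a summed level of 797 to 863 FPKM with the inhibitor and 862 to 879 FPKM with DMSO. Markers of other lineages were low. Epithelial markers (EPCAM, KRT8 and KRT18) summed to 2.74 to 4.15 FPKM with the inhibitor and 0 to 0.0144 FPKM with DMSO, with EPCAM and KRT18 at 0 in every DMSO library. Fibroblast markers summed to 0.436 to 0.646 FPKM with the inhibitor and 0.0988 to 0.132 FPKM with DMSO. Myeloid markers summed to 0.750 to 1.01 FPKM with the inhibitor and 0.568 to 0.798 FPKM with DMSO, and the 2 T-cell markers in the table to 0.0793 to 0.342 FPKM with the inhibitor and 0 FPKM in every DMSO library. Their part in the results below was not tested.

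Levels are given as FPKM, the authors' fragments per kilobase of gene scaled by library depth, with mean ± SD over n = 3 libraries. Changes are log2 fold changes of the inhibitor over DMSO with their standard error (SE), from edgeR's quasi-likelihood test on the counts, adjusted over all tested genes and called at an adjusted p under 0.05. Across the tested genes 38.1% were called higher and 27.3% lower with the inhibitor. Of the 8 caspase and IAP genes, 3 were called higher and 2 lower, shares close to that background. FPKM values of the groups did not overlap in 5 of the 8, against 71.7% of tested genes. The median log2 change was 0.18 over the 8 genes and 0.14 over all tested genes. Scaling moved small changes. Upper-quartile scaling shifted the median of all genes by 0.17 on the log2 scale, and quantile normalization with limma shifted it by -0.13 and turned the balance of all calls to 6025 higher and 7916 lower, against 7918 higher and 5672 lower with edgeR.

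**Figure D1:**
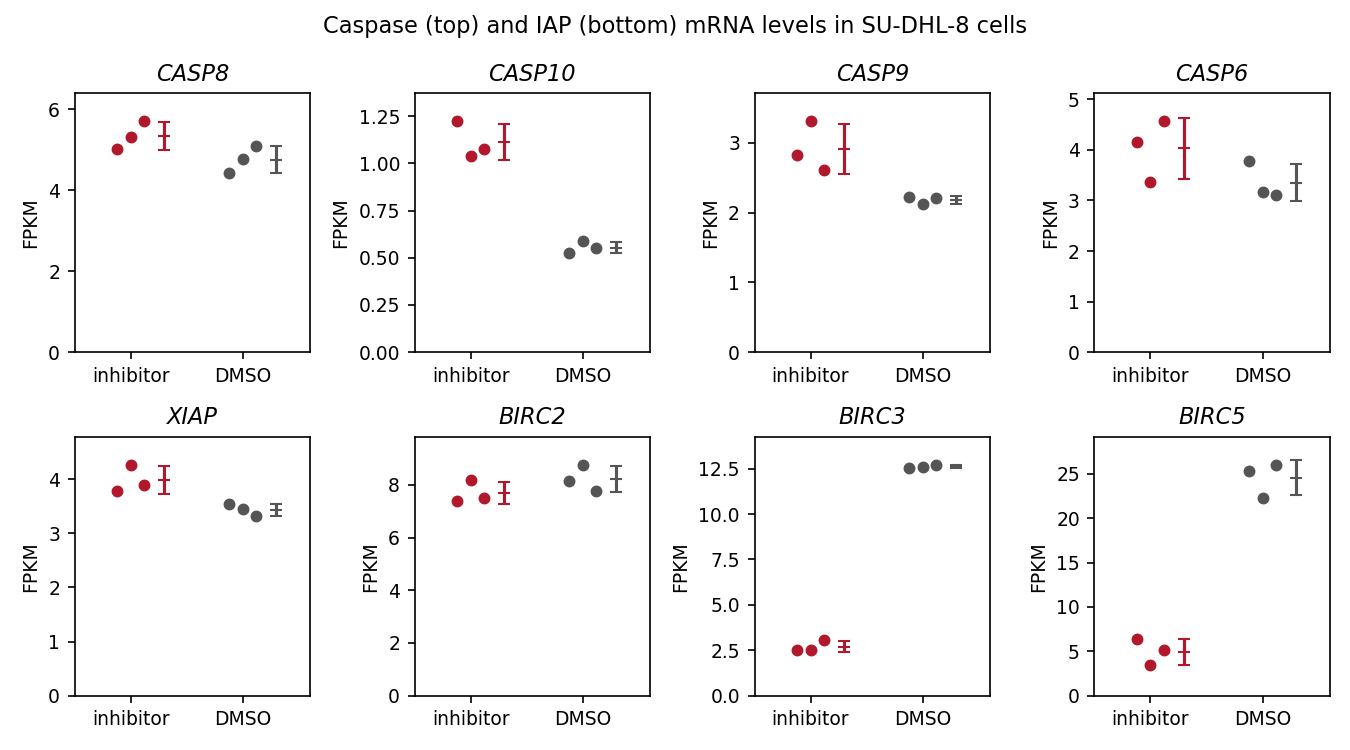
FPKM (y axis, from 0) of each caspase and IAP gene in the 3 inhibitor libraries (red) and the 3 DMSO libraries (grey). Dots are libraries and the bar beside them is the mean ± SD, and BIRC3 and BIRC5 are the 2 genes whose inhibitor libraries all lie far below their DMSO libraries (BIRC3 2.50 to 3.05 against 12.6 to 12.7 FPKM).

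BIRC5 (ENSG00000089685, GRCh38 chromosome 17, 78214186 to 78225636) measured 6.34, 3.40 and 5.11 FPKM in the inhibitor libraries, against 25.3, 22.3 and 26.0 FPKM in the DMSO libraries. Inhibitor replicate 2 was the lowest library, and every inhibitor library lay far below every DMSO library. The log2 change was -2.31 (SE 0.187, edgeR adjusted p = 3.7e-06), and BIRC5 ranked 232 in size among the 5672 genes called lower. With inhibitor replicate 1 alone the log2 change was -1.93 (edgeR adjusted p = 4.63e-05).

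The partners of BIRC5 in the chromosomal passenger complex, which corrects chromosome attachment and guides cytokinesis, fell as well, in 3 of 3 cases. The kinase AURKB averaged 7.01 ± 1.26 FPKM with the inhibitor and 25.1 ± 2.26 FPKM with DMSO (log2 change -1.84, SE 0.129, edgeR adjusted p = 1.46e-06). CDCA8 (borealin), which docks the complex on chromosomes, averaged 10.1 ± 1.67 FPKM with the inhibitor and 38.9 ± 1.68 FPKM with DMSO (log2 change -1.95, SE 0.111, edgeR adjusted p = 3.87e-07). INCENP, the scaffold, averaged 6.06 ± 0.473 FPKM with the inhibitor and 17.6 ± 1.55 FPKM with DMSO (log2 change -1.54, SE 0.0834, edgeR adjusted p = 2.89e-07). Inhibitor replicate 2 was the lowest library for AURKB (5.58 FPKM), CDCA8 (8.34 FPKM) and INCENP (5.57 FPKM), as it was for BIRC5. The same library was also the lowest for every listed gene of G2 and mitosis.

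All 12 listed genes of G2 and mitosis were called lower, with a median log2 change of -1.66, and in 13 of 17 other settings the count was 11. CCNB1, the mitotic cyclin B1 and the list's one gene whose groups overlapped, was near the threshold (13.9 ± 1.61 FPKM with the inhibitor and 16.3 ± 1.34 FPKM with DMSO, log2 change -0.24, edgeR adjusted p = 0.0468). Among them the transcription factor FOXM1 averaged 6.01 ± 1.08 FPKM with the inhibitor and 29.8 ± 2.01 FPKM with DMSO, the mitotic kinase CDK1 5.51 ± 0.837 FPKM with the inhibitor and 26.8 ± 1.6 FPKM with DMSO, and the proliferation marker MKI67 5.96 ± 1.0 FPKM with the inhibitor and 24.2 ± 1.21 FPKM with DMSO. CCNA2, a cyclin of S phase and G2, averaged 12.7 ± 2.24 FPKM with the inhibitor and 51.3 ± 3.40 FPKM with DMSO. These 4 were named for the largest changes of the list. Their log2 changes were -2.31, -2.29, -2.03 and -2.03 in that order, beside -2.31 for BIRC5. The other genes of the list ranged from -0.24 (CCNB1) to -1.77 (BUB1). In bulk RNA, fewer cells in mitosis and less BIRC5 RNA per cell cannot be told apart.

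BIRC3 (ENSG00000023445, chromosome 11, 102317450 to 102339403) measured 2.50, 2.54 and 3.05 FPKM in the inhibitor libraries, against 12.6, 12.6 and 12.7 FPKM in the DMSO libraries. No library of one group came near the other. Its log2 change was -2.23 (SE 0.0718, edgeR adjusted p = 1.87e-08), rank 277 among the genes called lower. BIRC2 (ENSG00000110330, chromosome 11, 102347211 to 102378670) is its closest relative and begins 7807 bases beyond its end on the same strand. BIRC2 measured 7.40, 8.17 and 7.52 FPKM in the inhibitor libraries, against 8.13, 8.77 and 7.77 FPKM in the DMSO libraries, and the groups overlapped. Its log2 change was -0.10 (SE 0.0669, 95% interval -0.25 to 0.05, edgeR adjusted p = 0.206), and the sign turned under upper-quartile scaling (0.07) and quantile normalization (0.03). Neither value was called.

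The ratio of BIRC3 to BIRC2 in FPKM was 0.338, 0.310 and 0.405 in the inhibitor libraries and 1.54, 1.43 and 1.64 in the DMSO libraries. BIRC3 was thus the lower of the pair in every inhibitor library and the higher in every DMSO library. On the scale of log2(FPKM + 0.5) the ratio averaged -1.36 ± 0.171 with the inhibitor and 0.59 ± 0.091 with DMSO (SD, n = 3 each), a difference of -1.95. The exact permutation test gave p = 0.1, two-sided, which is the smallest that 3 libraries against 3 allow, and 0.1 after adjustment over the 3 ratios tested here.

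RefSeq promoter windows (GRCh38.p14, 250 bases before to 50 after a start site) were matched for 6 of the 8 genes, 12 windows in all, and none was matched for CASP10 and BIRC5. Because DNMT1 methylates cytosine in CpG pairs, the windows of the neighbours BIRC3 and BIRC2 and of CASP8, the gene with the fewest CpG, are shown on their plus strand with CpG in capitals.
BIRC3, chr11:102317234-102317533: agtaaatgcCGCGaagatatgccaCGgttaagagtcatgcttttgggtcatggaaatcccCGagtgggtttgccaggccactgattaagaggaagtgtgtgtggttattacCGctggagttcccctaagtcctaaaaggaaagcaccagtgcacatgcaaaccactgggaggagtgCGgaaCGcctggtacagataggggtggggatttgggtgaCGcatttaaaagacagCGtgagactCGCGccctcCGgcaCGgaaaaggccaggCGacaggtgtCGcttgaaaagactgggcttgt
BIRC2, chr11:102346964-102347263: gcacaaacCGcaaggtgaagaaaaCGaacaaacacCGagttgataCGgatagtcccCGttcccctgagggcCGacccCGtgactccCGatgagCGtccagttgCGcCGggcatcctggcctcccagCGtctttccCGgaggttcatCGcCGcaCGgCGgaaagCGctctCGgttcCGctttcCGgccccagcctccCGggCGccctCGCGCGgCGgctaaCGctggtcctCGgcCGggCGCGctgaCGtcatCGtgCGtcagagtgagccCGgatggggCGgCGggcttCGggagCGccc
CASP8, chr2:201233213-201233512: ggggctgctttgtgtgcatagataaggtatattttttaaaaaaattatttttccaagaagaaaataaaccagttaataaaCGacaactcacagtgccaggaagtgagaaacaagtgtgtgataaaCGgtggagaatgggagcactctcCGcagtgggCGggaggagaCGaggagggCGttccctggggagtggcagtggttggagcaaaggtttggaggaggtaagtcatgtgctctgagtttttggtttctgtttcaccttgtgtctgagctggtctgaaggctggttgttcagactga

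The BIRC3 window holds 15 CpG, close to the median of 14 over all 35116 windows. This BIRC2 window holds 40, more than 92.4% of windows, and a second BIRC2 window holds 44. The 3 CASP8 windows hold 6, 5 and 6 CpG. CASP9 has 30 and 36, CASP6 has 28, and the 3 XIAP windows have 10, 17 and 27. Methylation was not measured here.

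BIRC3 is a textbook target of NF-kappaB, so the windows were also searched on both strands for the kappaB consensus (GG, 2 purines, 2 of any base, 2 pyrimidines, CC). The BIRC3 window holds 2 matches, shown in capitals within their flanks.
BIRC3, first base 199 before the start site: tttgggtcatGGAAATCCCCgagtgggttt
BIRC3, first base 135 before the start site: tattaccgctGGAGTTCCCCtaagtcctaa

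Of all windows 14% hold at least 1 match and 2.42% at least 2. The 2 BIRC2 windows hold none, and the second CASP8 window holds 1. A match in letters is not evidence of binding.

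Of 11 listed NF-kappaB target genes 10 were in the table, and of these 8 were called lower and 1 higher, with a median log2 change of -0.70. Over all tested genes 27.3% were called lower. The count of 8 was smaller, down to 6, in 14 of 17 other settings. REL, one of the 8 and named after its values were seen, had groups that overlapped (edgeR adjusted p = 0.0357). RELB, a subunit of the non-canonical pathway, averaged 14.9 ± 1.4 FPKM with the inhibitor and 38.5 ± 1.16 FPKM with DMSO (log2 change -1.37, SE 0.0734, edgeR adjusted p = 2.75e-07). NFKB2, its partner, averaged 13.3 ± 0.243 FPKM with the inhibitor and 26.8 ± 1.59 FPKM with DMSO (log2 change -1.01, SE 0.0515, edgeR adjusted p = 2.1e-07). The surface proteins CD83 and ICAM1 also fell, with log2 changes of -1.01 and -0.75. NFKBIA, the inhibitor IkappaB-alpha, was the gene that rose (24.1 ± 1.95 FPKM with the inhibitor and 17.7 ± 0.641 FPKM with DMSO, log2 change 0.44), and BCL2A1 was not called.

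The list of cIAP partners and other NF-kappaB signalling genes was called lower in 7 of 10 and higher in 2, with a median log2 change of -0.28. The shares over all tested genes were 27.3% lower and 38.1% higher. TRAF2, the adaptor that recruits both ligases to TNF receptors, measured 9.81, 8.38 and 8.37 FPKM in the inhibitor libraries, against 22.1, 21.6 and 21.8 FPKM in the DMSO libraries (log2 change -1.31, SE 0.0739, edgeR adjusted p = 3.77e-07). MAP3K14 (NIK), the kinase that the ligases mark for destruction, averaged 2.87 ± 0.155 FPKM with the inhibitor and 4.37 ± 0.226 FPKM with DMSO (log2 change -0.61). MALT1 and BCL10, which relay B-cell receptor signals to NF-kappaB, had log2 changes of -0.48 and -0.45. CHUK, a subunit of the IkappaB kinase complex named after its values were seen, was called lower (log2 change -0.28, edgeR adjusted p = 0.00364). The 2 that rose were IKBKG and IKBKB, other subunits of that complex also named after their values were seen, with log2 changes of 0.29 and 0.12. Neither call held with inhibitor replicate 1 alone or without DMSO replicate 1, where 0 genes of this list were called higher. Under upper-quartile scaling 4 were called lower. TRAF1 was not called.

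XIAP (ENSG00000101966, chromosome X, 123859712 to 123913972) measured 3.77, 4.27 and 3.89 FPKM in the inhibitor libraries, against 3.54, 3.45 and 3.31 FPKM in the DMSO libraries. The groups did not overlap, but the gap between the nearest libraries was small. The log2 change was 0.21 (SE 0.0625, edgeR adjusted p = 0.0157). The call was lost in 5 of 17 other settings, among them without inhibitor replicate 2 (edgeR adjusted p = 0.0525), without DMSO replicate 3 (0.0657) and with inhibitor replicate 1 alone (0.154).

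Proteins that counter the IAPs were mixed, with 1 of 3 tested genes higher and 2 lower. XAF1, which binds XIAP, averaged 1.13 ± 0.0685 FPKM with the inhibitor and 0.501 ± 0.188 FPKM with DMSO (log2 change 1.16, SE 0.263, edgeR adjusted p = 0.00319). DIABLO (SMAC) and HTRA2, both released from mitochondria to displace caspases from IAPs, averaged 6.76 ± 0.327 FPKM with the inhibitor and 8.34 ± 0.636 FPKM with DMSO, and 7.26 ± 0.367 FPKM with the inhibitor and 8.60 ± 0.115 FPKM with DMSO. Their log2 changes were -0.31 and -0.25 (edgeR adjusted p = 0.00293 and 0.0105). With inhibitor replicate 1 alone none of the 3 was called (edgeR adjusted p = 0.0631, 0.0567 and 0.183 in that order). Under upper-quartile scaling the log2 changes were -0.14 for DIABLO (edgeR adjusted p = 0.105) and -0.08 for HTRA2 (0.351). Under quantile normalization none of the 3 was called either, with log2 changes of 0.34 for XAF1 (limma adjusted p = 0.0782), -0.17 for DIABLO (0.0691) and -0.11 for HTRA2 (0.104). SEPTIN4 had too few counts to test.

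Among other members of the IAP family NAIP rose, BIRC6 changed little and BIRC7 was too low to test. NAIP, an IAP that serves as a sensor in inflammasomes and has near-identical genomic copies whose reads may be shared, averaged 1.41 ± 0.191 FPKM with the inhibitor and 0.856 ± 0.0477 FPKM with DMSO (log2 change 0.71, SE 0.125, edgeR adjusted p = 0.00069). The NAIP call was lost in 1 of 17 other settings, quantile normalization (limma adjusted p = 0.288), and its log2 change fell as low as 0.14 across settings. BIRC6, a giant ubiquitin ligase, averaged 9.08 ± 0.196 FPKM with the inhibitor and 9.68 ± 0.0451 FPKM with DMSO. Its log2 change of -0.10 was called (edgeR adjusted p = 0.0424), but the call was lost in 16 of 17 other settings, and the sign turned under upper-quartile scaling and quantile normalization. BIRC7 had 28 counts over the inhibitor libraries and 0 with DMSO and was not tested.

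**Figure D2:**
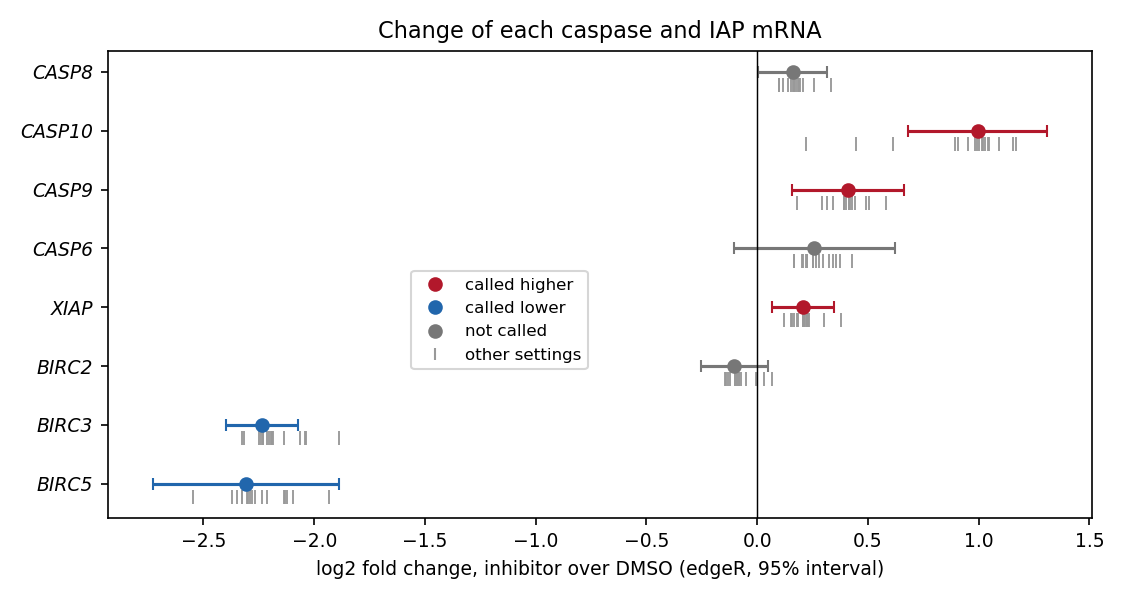
Log2 fold change of the inhibitor over DMSO (x axis) for the 8 genes, from edgeR with its 95% interval, coloured by call. Grey ticks under each point are the values in 17 other settings of filter, scaling, test or libraries, which span -2.55 to -1.93 for BIRC5 and -2.32 to -1.89 for BIRC3.

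CASP10 (ENSG00000003400, chromosome 2, 201182872 to 201229128) was the caspase that changed most among the 4. It measured 1.22, 1.04 and 1.08 FPKM in the inhibitor libraries, against 0.525, 0.587 and 0.550 FPKM in the DMSO libraries. Every inhibitor library was above every DMSO library, at a low level throughout. The log2 change was 0.997 (SE 0.139, edgeR adjusted p = 0.000151). It was 0.22 and not called under quantile normalization (limma adjusted p = 0.0918), and with limma it was 0.61 on log2(FPKM + 0.5) and 0.44 on log2(FPKM + 1), both called.

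CASP8 (ENSG00000064012, chromosome 2, 201233443 to 201361836) is the neighbour of CASP10, with 4314 bases between them. Its deposited end lies 74125 bases beyond its end in GENCODE 29, and its row overlaps FLACC1 (0.262 ± 0.0616 FPKM with the inhibitor and 0.133 ± 0.110 FPKM with DMSO), whose reads may be shared. CASP8 measured 5.03, 5.31 and 5.71 FPKM in the inhibitor libraries, against 4.42, 4.77 and 5.09 FPKM in the DMSO libraries. The groups overlapped slightly. Its log2 change of 0.16 (SE 0.0692, 95% interval 0.00 to 0.32) missed the threshold (edgeR adjusted p = 0.0676). It was called in 7 of 17 other settings, including without DMSO replicate 3 (edgeR adjusted p = 0.0479).

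CASP8 stayed the more abundant of this pair. The ratio of CASP8 to CASP10 in FPKM was 4.11, 5.09 and 5.30 in the inhibitor libraries and 8.41, 8.13 and 9.25 in the DMSO libraries. On the log2(FPKM + 0.5) scale the difference was -0.46, and -0.84 without a pseudocount, each with the smallest possible exact permutation p of 0.1. CFLAR (FLIP), the caspase-like inhibitor that competes with CASP8 at death receptors, ends 6184 bases before CASP10. Its level averaged 1.41 ± 0.108 FPKM with the inhibitor and 1.28 ± 0.0217 FPKM with DMSO, a log2 change of 0.13 that was not called (edgeR adjusted p = 0.099), and its sign turned under quantile normalization (-0.22).

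The list of death receptors and the proteins that signal with them, which also holds BID, a CASP8 substrate, and RIPK3, had 4 of 12 tested genes called higher and 4 lower, or 2 lower with a 1 FPKM filter that tests fewer genes. FADD, the adaptor that both caspases bind, measured 11.3, 11 and 10.9 FPKM in the inhibitor libraries, against 24.3, 21.7 and 24.8 FPKM in the DMSO libraries (log2 change -1.10, SE 0.0714, edgeR adjusted p = 9.08e-07). FAS, a death receptor named after its values were seen, fell (0.161 ± 0.0220 FPKM with the inhibitor and 0.565 ± 0.0269 FPKM with DMSO, log2 change -1.79). Its counts summed to 880 with the inhibitor and 3569 with DMSO, so its low FPKM does not mean few reads. TNFRSF1A, the main TNF receptor, rose (1.61 ± 0.0467 FPKM with the inhibitor and 0.631 ± 0.0796 FPKM with DMSO, log2 change 1.34), as did its adaptor TRADD (4.89 ± 0.157 FPKM with the inhibitor and 2.37 ± 0.616 FPKM with DMSO, log2 change 1.04). TNFRSF10D, a decoy receptor for TRAIL, averaged 3.95 ± 0.209 FPKM with the inhibitor and had 0 counts in every DMSO library, at least 252-fold higher if 12 counts (about 3 read pairs) are set as the DMSO group's floor, a bound on counting error only.

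CASP9 (ENSG00000132906, chromosome 1, 15490832 to 15524889) measured 2.83, 3.31 and 2.61 FPKM in the inhibitor libraries, against 2.22, 2.12 and 2.21 FPKM in the DMSO libraries. The groups did not overlap, and the inhibitor libraries were the more scattered. The log2 change was 0.41 (SE 0.113, edgeR adjusted p = 0.00947), and under quantile normalization it was 0.18 and not called (limma adjusted p = 0.16).

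The apoptosome list, which also holds the APAF1 inhibitor AVEN, was called lower in 3 of 3. APAF1, the scaffold, averaged 2.91 ± 0.174 FPKM with the inhibitor and 3.59 ± 0.236 FPKM with DMSO (log2 change -0.31, SE 0.0786, edgeR adjusted p = 0.00659). CYCS (cytochrome c) averaged 57.4 ± 1.58 FPKM with the inhibitor and 70.9 ± 2.11 FPKM with DMSO (log2 change -0.31, SE 0.0397, edgeR adjusted p = 8.25e-05). AVEN, which restrains APAF1, averaged 4.83 ± 0.285 FPKM with the inhibitor and 5.92 ± 0.134 FPKM with DMSO (log2 change -0.30, edgeR adjusted p = 0.00719). CASP9 and these 3 genes thus had changes of opposite sign. With inhibitor replicate 1 alone APAF1 (edgeR adjusted p = 0.103) and AVEN (0.164) were not called. Nor were they under upper-quartile scaling, where the log2 changes were -0.13 for APAF1 (edgeR adjusted p = 0.16) and -0.13 for AVEN (0.172).

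CASP6 (ENSG00000138794, chromosome 4, 109688622 to 109703583) measured 4.15, 3.37 and 4.57 FPKM in the inhibitor libraries, against 3.78, 3.18 and 3.11 FPKM in the DMSO libraries. The groups overlapped, with the lowest inhibitor library below the highest DMSO library. Its log2 change was 0.26 (SE 0.161, 95% interval -0.11 to 0.62, edgeR adjusted p = 0.188). CASP6 shares 98 bases with MCUB on the opposite strand, and MCUB was called lower (6.46 ± 0.791 FPKM with the inhibitor and 10.9 ± 0.326 FPKM with DMSO, log2 change -0.76). The sources used here do not say whether counting used strand.

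CASP2, a caspase linked to DNA damage, averaged 8.85 ± 0.350 FPKM with the inhibitor and 9.96 ± 0.805 FPKM with DMSO. Its log2 change of -0.18 was called (edgeR adjusted p = 0.0382), but not in 14 of 17 other settings.

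Inflammatory caspases, which cut gasdermins and cytokine precursors, were called higher in 2 of 2 tested. CASP1 measured 4.41, 4.67 and 4.98 FPKM in the inhibitor libraries, against 1.5, 1.33 and 1.71 FPKM in the DMSO libraries (log2 change 1.62, SE 0.121, edgeR adjusted p = 2.27e-06). CASP4 measured 4.61, 5.89 and 4.76 FPKM with the inhibitor, against 1.67, 1.86 and 1.96 FPKM with DMSO (log2 change 1.46, SE 0.107, edgeR adjusted p = 1.94e-06). CASP5 and CASP12 had at most 12 counts over the inhibitor libraries and 0 with DMSO and were not tested.

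The list of caspase substrates, which also holds the nuclease DFFB, was called higher in 5 of 12 and lower in 5, with a median log2 change of 0.01. DFFB was among the 5 called higher. The count called lower was 3 under upper-quartile scaling and under quantile normalization. LMNA, the lamin cut by CASP6, averaged 4.18 ± 0.124 FPKM with the inhibitor and 0.897 ± 0.117 FPKM with DMSO (log2 change 2.2, SE 0.1, edgeR adjusted p = 1.09e-07). B-type lamins were called lower. LMNB1 averaged 31.9 ± 3.89 FPKM with the inhibitor and 111.7 ± 4.57 FPKM with DMSO (log2 change -1.81) and LMNB2 25.8 ± 1.07 FPKM with the inhibitor and 53.2 ± 0.379 FPKM with DMSO (log2 change -1.05). DFFB, the nuclease freed when caspases cut its inhibitor, averaged 4.93 ± 0.237 FPKM with the inhibitor and 1.4 ± 0.281 FPKM with DMSO (log2 change 1.80), and the inhibitor, DFFA, 12.7 ± 0.494 FPKM with the inhibitor and 14.1 ± 0.345 FPKM with DMSO (log2 change -0.15, edgeR adjusted p = 0.0217).

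**Figure D3:**
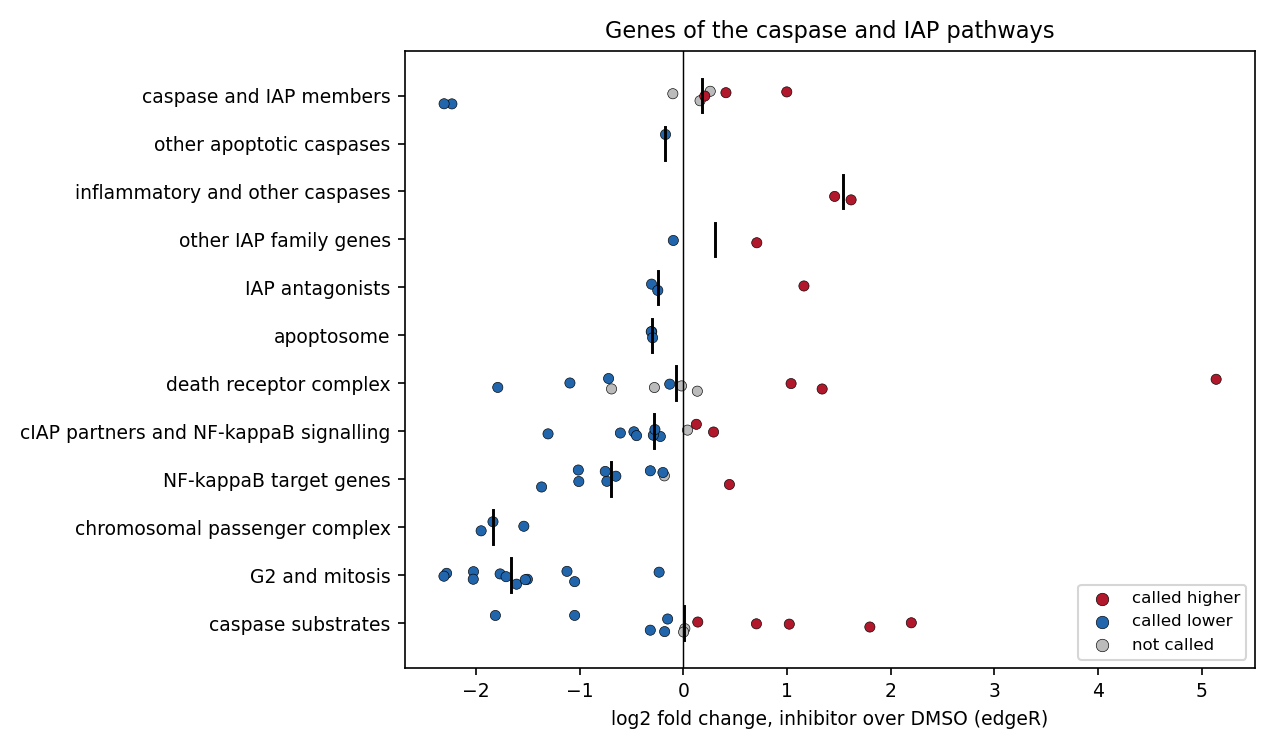
Log2 fold change of the inhibitor over DMSO (x axis, edgeR) for the tested genes of each pathway list (rows), coloured by call, with the list median as a black bar. TNFRSF10D, at 0 in every DMSO library, is counted in its median but not drawn, and the point farthest right is the necroptosis kinase RIPK3, at a low level in both groups. The G2 and mitosis row (median -1.66) and the chromosomal passenger row (median -1.84) lie wholly below 0.

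Together the 11 lists hold 79 genes, of which 74 were in the table and 70 tested. Of these 16 were called higher and 46 lower, with a median log2 change of -0.30. With inhibitor replicate 1 alone 12 were called higher and 34 lower, and under upper-quartile scaling 19 were called higher and 31 lower. The lists were chosen with earlier results of these data known, and the mitotic ones among them were already known to be low. Of the 46 called lower, 12 came from the G2 and mitosis list and 3 from the chromosomal passenger list. Over all tested genes 38.1% were called higher and 27.3% lower, with a median log2 change of 0.14.

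Compared per length within a library, the order of the 8 genes changed. With the inhibitor BIRC2 was highest (mean 7.70 FPKM), followed by CASP8 (5.35), BIRC5 (4.95), CASP6 (4.03), XIAP (3.98), CASP9 (2.92), BIRC3 (2.69) and CASP10 (1.11). The ranges of CASP8 and BIRC5, BIRC5 and CASP6, CASP6 and XIAP, and CASP9 and BIRC3 overlapped there, although BIRC5 was above CASP6 within each library. With DMSO the order was BIRC5 (24.5 FPKM), BIRC3 (12.6), BIRC2 (8.22), CASP8 (4.76), XIAP (3.43), CASP6 (3.36), CASP9 (2.18) and CASP10 (0.554), and among neighbours only XIAP and CASP6 overlapped.

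As a description, the 4 IAP genes summed to 20, 18.4 and 19.6 FPKM in the inhibitor libraries and 49.5, 47.1 and 49.8 FPKM in the DMSO libraries. The 4 caspases summed to 13.23, 13.03 and 13.96 FPKM in the inhibitor libraries and 10.95, 10.7 and 10.95 FPKM in the DMSO libraries. The quotient of both sums was 1.512, 1.410 and 1.401 with the inhibitor and 4.52, 4.42 and 4.55 with DMSO. BIRC5 made up 25.4% ± 6.60 of the IAP sum with the inhibitor and 50.2% ± 2.55 with DMSO, and BIRC2 39.96% ± 3.96 with the inhibitor and 16.9% ± 1.57 with DMSO. The ratio of BIRC5 to XIAP was 1.68, 0.797 and 1.31 with the inhibitor and 7.16, 6.47 and 7.86 with DMSO (difference in log2(FPKM + 0.5) -2.42, exact permutation p = 0.1, two-sided). These are mRNA levels, and protein was not measured.

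**Figure D4:**
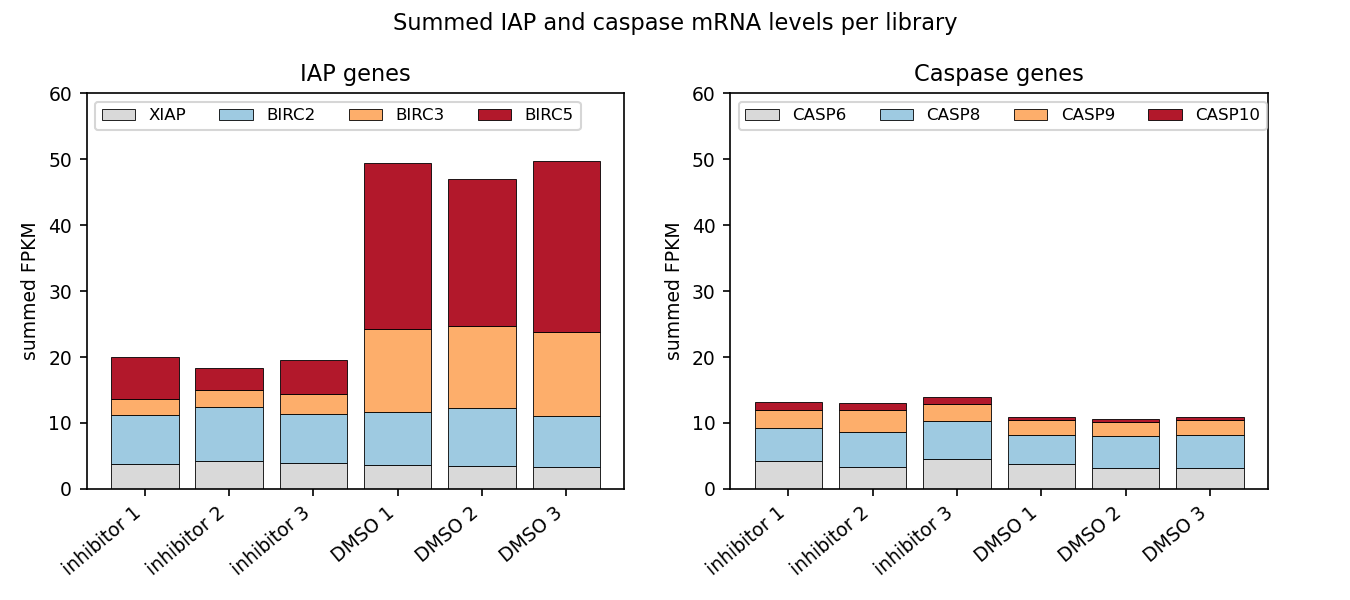
Summed FPKM (y axis) of the 4 IAP genes (left) and the 4 caspases (right) in each of the 6 libraries, stacked by gene on the same axis from 0. The IAP stacks reach 18.4 to 20 FPKM in the inhibitor libraries and 47.1 to 49.8 FPKM in the DMSO libraries, and the red BIRC5 segment is the part that differs most.

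Genes whose log2(FPKM + 0.5) followed each of the 8 most closely over the 6 libraries were read from 12777 tested genes that reached 1 FPKM on average in either group. The Pearson correlations of the 3 nearest genes per member lay between 0.9715 (BIRC2) and 0.9999 (BIRC3). Groups that stand apart, as for BIRC3, can give such values by themselves. For BIRC2 the groups overlapped, as did those of its nearest genes. In each case the nearest genes are the top 3 of 12777 over only 6 libraries. For BIRC3 they were MSH6, a mismatch repair protein (12.6 FPKM with the inhibitor and 21.3 FPKM with DMSO), CEP85, a centrosome protein (8.52 FPKM with the inhibitor and 24.2 FPKM with DMSO), and GOSR1, a Golgi SNARE (5.40 FPKM with the inhibitor and 7.97 FPKM with DMSO). For BIRC5 they were the splicing and repair factor XAB2 (15.8 FPKM with the inhibitor and 23.0 FPKM with DMSO), ENSG00000186076 (13.7 FPKM with the inhibitor and 26.9 FPKM with DMSO) and the seryl-tRNA synthetase SARS1 (77.3 FPKM with the inhibitor and 111.1 FPKM with DMSO). For CASP10 they were RAB5B, a GTPase of endosomes (19.8 FPKM with the inhibitor and 13.2 FPKM with DMSO), TSPYL4 (30.1 FPKM with the inhibitor and 22.3 FPKM with DMSO) and ZBTB11-AS1 (1.81 FPKM with the inhibitor and 0.900 FPKM with DMSO).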

How the data were processed

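Oligo(dT)-selected RNA was made into libraries with dUTP marking of the second strand, per the labels' protocols. Without roles, the tools listed per the submitters' processing notes are StringTie 2.1.6, HISAT2 2.2.1, cutadapt 1.9, edgeR and DESeq2, and mm10 is the build named. The gene IDs are human: 34105 of 35974 were found in GENCODE 29 and 99.87% of these overlapped their GRCh38 position, so coordinates are read as GRCh38. For every gene and library the authors deposited FPKM and an estimated count, with no scaling defined per the file headers. Counts of 4 were held by 1319.8 genes per library on average, against 725.8 for counts of 3, so 4 counts were taken as about 1 read pair. Depth limits low genes most. Floors cover counting error only, while the edgeR intervals include the spread between libraries.

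Libraries were grouped by title. Between replicates the variance was 3.31 to 6.86 times that of sampling alone. The main test was edgeR 4.0.16 (R 4.3.3, quasi-likelihood, filterByExpr, TMM factors of 0.981 to 1.02, Benjamini-Hochberg over 20783 genes, two-sided). SE is the log2 change divided by the square root of F, and 95% intervals use the t distribution of that fit. Alternatives used DESeq2 1.42.0, limma 3.58.1 (with trend), other filters and scalings, counts divided by 4, a replicate block and fewer libraries. The deposited estimated counts are whole numbers and were used as they stand. On simulated counts for 20043 genes, of 50 genes per size, edgeR found 40% where the change was 1.3-fold, 52% where it was 1.5-fold, 74% where 2-fold and 92% where 4-fold, and made 10 false calls in 19843. Changed genes were drawn from the more abundant ones, and 19843 of the 20043 were left unchanged. In the data 38.1% of genes were called higher and 27.3% lower, which eases the adjusted threshold, so these shares do not give the power of the real comparison.

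The 8 genes, the 11 lists and the tests were chosen with earlier results of these data known. Named genes were the 8, up to 4 called genes per list with the largest change, an FPKM of at least 1 in a group and groups that did not overlap, direct partners, overlapping rows, and the 3 nearest genes by correlation. Other genes are named as chosen after their values were seen, or stand as plain list members. Of 7 rows that overlapped one of the 8 genes, those not named above were low (at most 0.457 FPKM on average). CCL22, FASLG, TNFRSF10C, CASP14, BIRC8, CD3D and CD3G had no row under those symbols. A few listed genes are not reported here and are not counted in the lists.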

Additional observations from a re-analysis of the deposited data

How the results depend on the processing

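BIRC3, BIRC5 and the count of 2 genes called lower kept their direction and call in all 17 other settings. The count of genes called higher was 3, but 5 under upper-quartile scaling and 1 under quantile normalization. CASP8 was called with DESeq2 (log2 change 0.18), upper-quartile scaling (0.33), a 1 FPKM filter (0.26), quantile normalization (0.20), counts divided by 4 (0.19) and the replicate block (0.16, edgeR adjusted p = 0.0465), and it ranged from 0.10 to 0.21 without single libraries. CASP10 (0.22) and CASP9 (0.18) were not called under quantile normalization, and CASP6 was called under upper-quartile scaling (0.43). XIAP was not called with limma and a pseudocount of 1 (0.17), under quantile normalization (0.12) and with inhibitor replicate 1 alone (0.15), and it ranged from 0.16 to 0.23 without single libraries. Signs turned for BIRC2 (0.069 and 0.030) and BIRC6 (0.074 and 0.056) under upper-quartile scaling and quantile normalization, and for CFLAR (-0.22) under quantile normalization. The cause was not tested. With that filter 4826 genes were higher, since fewer were tested. No pairing of libraries by replicate number was found: deviations from the group means correlated at 0.00049, 0.0211 and 0.00268 between same-numbered libraries, and 3 of 6 libraries correlated best with their own number. With so few libraries this check cannot exclude pairing. The block moved no other call among the 8 genes. With inhibitor replicate 1 alone, the lone library is assumed to vary like the others. Ratios per kilobase of counts were not run, since the table holds no gene length.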
